A study of Mus musculus with 22 samples.

Results

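Stem cell-enriched SLAM LSK cells from mouse fetal liver were compared after a longer and a shorter culture on stroma that keeps the Notch pathway active, by the 4 arrays titled as 10 h in DMSO and the 7 titled as 4 h in DMSO. These were 11 of the 22 arrays of the series. The other 11 carry a gamma-secretase inhibitor (GSI, 1 µM) at the same times and are used only at the end. Every sample came from wild-type C57Bl/6J embryos at E14.5. Dissected fetal liver cells were kept on OP9-DL1 for the labelled time, SLAM LSK cells were then sorted, and RNA of the sorted cells was put on 1 array per sample. The sort came after the culture, so each array describes the cells that held the gate at its own time. All groups were cultured on OP9-DL1 and no uncultured sample was analysed here, so both times are times in culture.

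Notch receptors are cut by gamma-secretase when a ligand on a neighbouring cell pulls on them, and the freed intracellular part enters the nucleus and switches on target genes with the DNA-binding protein Rbpj. OP9-DL1 is a marrow stromal line that carries the Notch ligand Dll1 and is used to keep this signal on in blood progenitors. DMSO is the solvent of the inhibitor and leaves the pathway intact. LSK cells lack lineage markers and carry Sca-1 and Kit, and SLAM family proteins such as CD150 (Slamf1) and CD48 narrow this pool towards stem cells; which of them the gate used is not given in the sources used here. Fetal liver stem cells, unlike most adult ones, divide often.

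Values are log2 expression levels after the 11 arrays were brought to 1 distribution. A difference is the mean at 10 h minus the mean at 4 h on that scale, where 1 is a doubling, and its error is a standard error (SE). A gene passed when limma's adjusted p was under 0.05 over all 22180 genes. Only levels of the same gene are compared, and the precision is limited by how few arrays each time has. Codes in the sample descriptions, whose meaning is not stated, put the 4 h arrays in 3 groups (replicate 1, replicates 2 and 3, replicates 4 to 7) and the 10 h arrays in 2 (replicates 1 and 2, replicates 3 and 4). Since every code group belongs to a single time, culture time cannot be told apart from run in any value below. As deposited, the array medians were 5.03 to 5.12 at 4 h and 4.46 to 4.52 at 10 h. Among the 4 h arrays, replicate 6 had the lowest median correlation with the others (0.965). Replicate 1 was close to it (0.97), and the rest were at 0.98 to 0.984. Replicate 6 at 4 h had the highest level of endothelial genes and the lowest of stem cell regulators.

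In all, 7537 of 22180 genes passed (34.0%), 4164 higher (18.8%) and 3373 lower (15.2%) at 10 h. Most of these differences were small: 1239 genes (5.59%) also differed by at least 1 on the log2 scale, 350 upward (1.58%) and 889 downward (4.01%). The median difference of all genes was 0.04. Without further normalization that median was -0.41 and 3.48% of the passing genes were higher, while centring each array on its median moved it to 0.19 with 74.7% higher. The split between rises and falls over all genes is therefore set by the scaling. Lists below are set beside the shares of all genes that passed, which depend on the scaling too. Their medians are printed without subtracting the median of all genes. Relative to the median of all genes, the median of each of the 37 gene lists kept its sign under all 5 scalings. Centring shifts all genes alike, so its relative medians equal those without further normalization by construction. Scaling all 22 arrays together nearly repeated the main values, so these are fewer than 5 separate checks. Actb and Gapdh, common reference genes, had differences of -0.01 and 0.01.

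**Figure D1:**
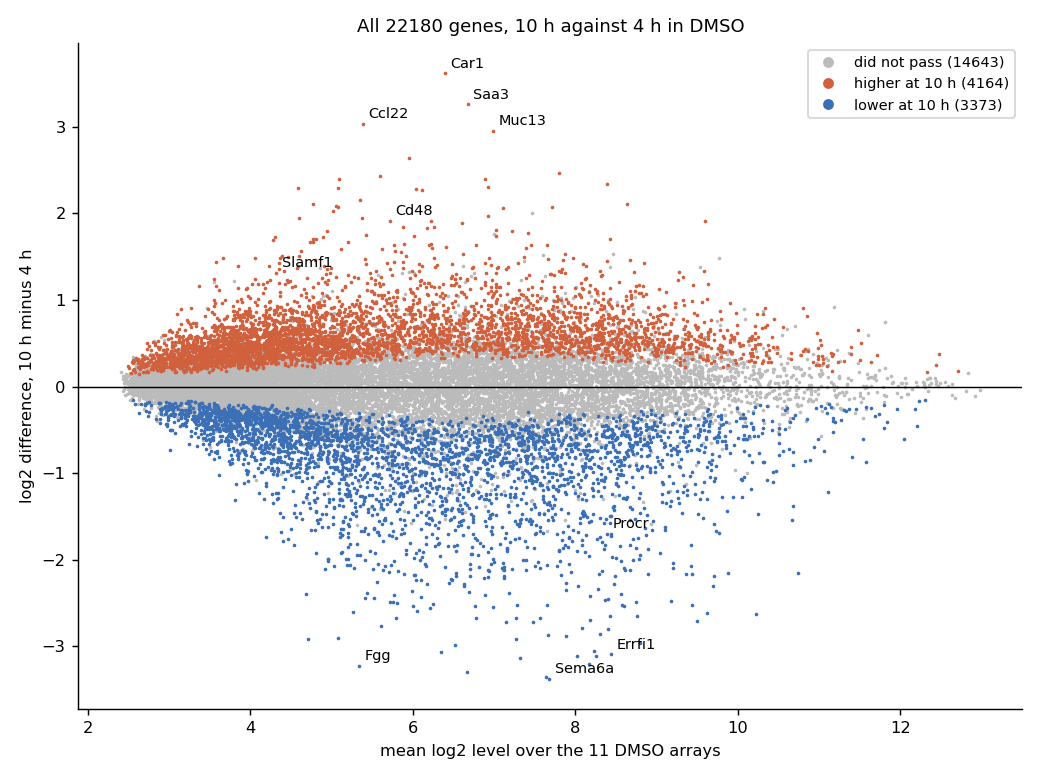
Difference at 10 h minus 4 h in DMSO (log2, vertical) against mean level over the 11 arrays (log2, horizontal), 1 point per gene. Orange points passed higher (4164 genes) and blue points lower (3373 genes); the falls reach further from 0 than the rises for genes of middle level.

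Car1, the carbonic anhydrase 1 of red cells, rose most. Its 7 arrays at 4 h had a lowest, median and highest level of 4.58, 5.07 and 5.80, and the 4 arrays at 10 h stood at 9.21, 8.38, 8.77 and 8.44. This is a difference of 3.62 ± 0.25 (SE), or 12.3-fold (limma adjusted p = 6.4e-06), and the groups were far apart. Saa3, an acute-phase serum amyloid protein, rose by 3.26 ± 0.45, from 5.49 ± 0.96 (SD, n = 7) to 8.75 ± 0.51 (n = 4). Ccl22, a chemokine that attracts cells with the receptor Ccr4, was at 3.77, 4.08 and 5.60 (lowest, median, highest) at 4 h and at 7.21, 7.71, 7.63 and 6.75 at 10 h. Replicate 1 at 4 h held that highest value and still lay below all 10 h arrays. Ccr7, the receptor that leads lymphocytes and dendritic cells to lymph nodes, rose by 2.15 ± 0.18, from 4.57 ± 0.16 to 6.72 ± 0.48.

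Other large rises were spread over unrelated functions. Muc13, a membrane mucin, rose 7.75-fold (2.95 ± 0.23). Gdf3, a secreted factor of the TGF-beta family, rose 5.25-fold, from 4.23 ± 0.25 to 6.62 ± 0.32. Wfdc21 rose by 2.64, Plac8 by 2.47, the carboxylesterase Ces2g by 2.43, the SOCS box protein gene Asb17 by 2.30 and Pnp2, a purine nucleoside phosphorylase with a close copy beside it, by 2.30. Atp1b2, a subunit of the sodium pump, rose by 2.28, Parm1 by 2.27, the zinc finger gene Zfp992 by 2.11 and Kcnab2, a potassium channel subunit, by 2.07. These 15 were the largest rises among genes whose 10 h arrays all lay above all 4 h arrays, and all 15 passed with each array left out in turn.

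The largest falls reached similar size. Sema6a, a membrane semaphorin, fell 10.3-fold, from 8.91 ± 1.24 to 5.54 ± 0.62 (-3.37 ± 0.57, limma adjusted p = 0.0012). Its 4 h arrays ranged from 6.94 to 10.59 with a median of 9.27, and those at 10 h were at 6.33, 5.59, 4.84 and 5.39. Selenop, the selenium carrier of plasma, fell 8.61-fold with less spread, from 9.15 ± 0.61 to 6.05 ± 0.49. Errfi1, a feedback inhibitor of the EGF receptor, fell by 3.09 ± 0.49 and Lepr, the leptin receptor, by 2.90 ± 0.47. Gal, which encodes the neuropeptide galanin, fell by 3.29 ± 0.71, with 4 h arrays spread from 5.87 to 10.05 and all 10 h arrays between 4.14 and 4.76.

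Several of these falls are genes of other cell types of the liver. Fgg (fibrinogen), Ttr (transthyretin) and Serpina1d (an antitrypsin, 1 of a family of near-identical copies) are secretory products of hepatocytes and fell by 3.22, 2.96 and 2.91. Esm1, an endothelial secreted protein, fell by 2.85, Nid1, of basement membranes, by 3.05 (-1.66 at its other probe), and Maf, a transcription factor of macrophages, by 3.35 (-2.01 at its other probe). The others of the 15 largest falls were Gadd45b, a growth-arrest gene described with the immediate-early genes (-3.11), Eml1, a microtubule-binding protein (-3.06), Klf7 (-2.87, and -1.23 at its other probe) and Lrrc32, which tethers latent TGF-beta to the cell surface (-2.71). None of the 15 lost its call with any array left out.

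**Figure D2:**
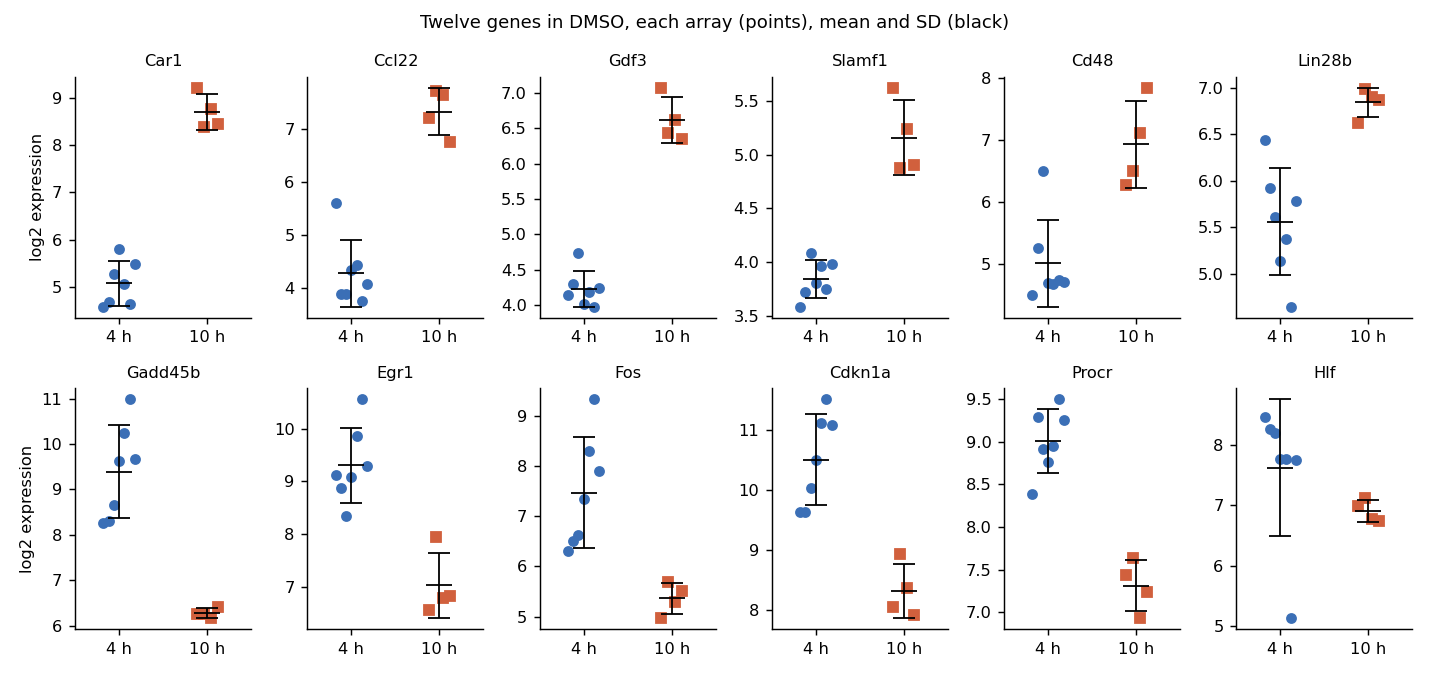
Log2 level of 12 genes on each DMSO array (points; circles 4 h, squares 10 h), with the mean and SD of each group in black. Car1, Ccl22, Gdf3, Slamf1 and Lin28b do not overlap between times upward, nor Gadd45b, Egr1, Fos, Cdkn1a and Procr downward, while Cd48 and Hlf do.

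Markers of other cells were therefore counted before the blood genes were described. Endothelial genes were lower at 10 h in 23 of 28 measured members, against 15.2% of all genes, with none higher and a median of -1.78. The mean level of the list on the 4 h arrays, replicates 1 to 7, was 6.81, 7.56, 7.85, 8.16, 8.53, 9.27 and 8.45, and 6.57, 7.03, 6.21 and 6.01 at 10 h. Replicate 1 at 4 h lay inside the range of the 10 h arrays and the rest above it. Stab2, a scavenger receptor of liver sinusoids, had a lowest, median and highest level of 7.22, 9.93 and 11.12 at 4 h and stood at 7.42, 8.02, 6.06 and 5.45 at 10 h (-2.65 ± 0.67, limma adjusted p = 0.0102). Flt1, a VEGF receptor, fell by 2.30 ± 0.49, and both genes overlap between times through replicate 1. Cdh5, the cadherin of endothelial junctions, differed by -2.30 and lost its call without 10 h replicate 3 (-2.20) or 4 (-1.52). In these bulk samples, fewer cells of a type and less RNA per cell cannot be told apart.

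Hepatocyte genes passed as lower in 16 of 28 members, against 15.2% of all genes, with a median of -1.41, and none was higher. Their mean level varied most among the 4 h arrays, at 5.49, 7.49, 6.12, 7.57, 7.86, 5.75 and 6.42 for replicates 1 to 7, against 5.19 to 5.39 at 10 h. Alb, serum albumin, was at 7.48, 8.64 and 10.88 (lowest, median, highest) at 4 h and at 6.03, 7.17, 7.15 and 6.82 at 10 h (-2.34 ± 0.66), and it lost its call without 10 h replicate 1 (-2.08). Apoa2, an apolipoprotein, fell by 2.71 ± 0.64. The liver transcription factors Hnf4a and Foxa2 differed by 0.08 each and did not pass. The count of 16 was 8, 9 and 10 without 10 h replicate 1, 3 and 4.

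Macrophage genes passed as lower in 9 of 27 (none higher, median -0.47), against 15.2% of all genes. Mrc1, a mannose receptor, fell by 2.72, Mertk, which clears dead cells, by 2.40 and Cd5l by 1.78. The defining markers C1qa and Adgre1 did not pass (-0.38 and 0.44). Of 35 genes of the OP9 stroma and fat cell precursors, 10 were lower and 1 higher (median -0.57), and the lower count was 6 without 10 h replicate 3 and 5 without 10 h replicate 4. Fabp4, a fatty acid carrier, fell by 2.17 ± 0.48 and Postn, a matrix protein, by 1.95 ± 0.29. The collagens Col1a1, Col1a2 and Col3a1 did not pass, at -0.52, -0.38 and -0.32. The list's mean level overlapped between times, with 6.30 to 7.76 over the 4 h arrays against 5.82 to 6.93.

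The levels of these lists also differed between code groups of 1 time. Without the 4 arrays of the third 4 h code group, 11 of 28 endothelial, 2 of 28 hepatocyte, 9 of 27 macrophage and 3 of 35 stromal genes were lower, where 6.98% of all genes were. Their part in the falls of the other lists below was not tested.

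Immediate-early genes, which signals switch on within minutes and which need no new protein, were mostly lower at 10 h. Of 31 measured members, 25 passed as lower and none as higher, against 15.2% and 18.8% of all genes, and the median was -1.71. Leaving out any 1 array gave 22 to 27 lower members. In 18 members all 10 h arrays lay below all 4 h arrays, as in 9.10% of all genes. The mean level of the list was 8.02, 7.95, 7.94, 8.30, 8.79, 9.28 and 8.46 on 4 h replicates 1 to 7, and 6.84, 7.24, 6.71 and 6.80 at 10 h. Replicate 1 at 4 h, the only DMSO array of its code group, lay above all 10 h arrays in 22 of the 31 genes, against 25% of all genes. Without the third 4 h code group 19 members were lower, against 6.98% of all genes there.

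Promoter stretches are shown for 3 of the 4 members that held a CArG box, the site of serum response factor (SRF), an activator of this class that needs no new protein. The box was searched as CC, 6 bases of A or T, GG, on both strands of the 250 bases before the start site, in RefSeq promoters of build GRCm38.p6. It was found in 4 of 27 immediate-early genes with a promoter (14.8%) and in 1.49% of 16918 genes tested. The boxes are in capitals, and each stretch reads 5′ to 3′ along its gene.
Zfp36, chr7:28379229-28379328, minus strand: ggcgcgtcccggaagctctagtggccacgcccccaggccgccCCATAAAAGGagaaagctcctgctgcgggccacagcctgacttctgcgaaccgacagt
Egr2, chr10:67537466-67537565, plus strand: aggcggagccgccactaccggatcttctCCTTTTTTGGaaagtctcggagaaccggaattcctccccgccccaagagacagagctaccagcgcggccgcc
Dusp5, chr19:53529043-53529142, plus strand: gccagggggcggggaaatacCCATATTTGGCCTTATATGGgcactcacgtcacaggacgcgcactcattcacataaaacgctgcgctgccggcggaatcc
The cyclic AMP response element TGACGTCA was found in 11.1% of the 27 against 2.29% of all, and its core TGACG, which the full element contains, in 63% against 23.2%. These matches are letters in a window, not measured binding.

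Each of these 3 genes was lower on every 10 h array than on every 4 h array. Zfp36, which makes inflammatory mRNAs decay, was at 11.01, 11.50 and 12.06 (lowest, median, highest) at 4 h and at 8.67, 10.18, 9.54 and 9.09 at 10 h (-2.15 ± 0.27). Egr2, a zinc finger activator, was at 5.56, 6.26 and 7.78 and then at 4.34, 4.89, 4.91 and 4.59 (-1.74 ± 0.36). Dusp5, a nuclear phosphatase that turns ERK off, was at 7.68, 8.01 and 8.62 and then at 6.73, 6.92, 6.80 and 7.23 (-1.16 ± 0.17).

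Among the members that fell were several transcription factors and their relatives in stress signalling. Gadd45b, a stress and growth-arrest gene, fell 8.65-fold, from 9.39 ± 1.03 to 6.28 ± 0.10, and its 10 h arrays lay between 6.17 and 6.42. Nr4a1, an orphan nuclear receptor, fell by 2.65 ± 0.34, with 4 h arrays from 8.80 to 10.98 and 10 h arrays from 6.68 to 7.49, and its relative Nr4a3 fell by 2.28 ± 0.29. Egr1 was at 8.35, 9.11 and 10.56 (lowest, median, highest) at 4 h and at 6.55, 7.94, 6.78 and 6.83 at 10 h, a fall of 2.28 ± 0.37 (limma adjusted p = 0.000924). Fos and Jun, the partners of the AP-1 factor, fell by 2.10 ± 0.49 and 1.84 ± 0.28. The highest 4 h value of Egr1, Fos and Jun was that of replicate 6, and without it none of the 3 lost its call. Members that did not pass included Klf4 (-0.60), Klf2 (-0.31) and Srf itself (-0.45), and Egr3 had the one positive difference, 0.32.

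p53 target genes that passed were lower too. Of 26 measured, 12 were lower and none higher (median -0.56), against 15.2% and 18.8% of all genes. With 1 array left out, 8 to 14 were lower. Without the third 4 h code group 6 were lower, where 6.98% of all genes were. Without the second 10 h code group 4 were lower, where 1606 of 22180 genes were. Cdkn1a, which encodes the cell cycle inhibitor p21, had 4 h levels of 9.63, 10.50 and 11.51 (lowest, median, highest) and was at 8.05, 8.93, 8.36 and 7.92 at 10 h, a 4.55-fold fall (-2.19 ± 0.36, limma adjusted p = 0.000999). Btg2, an antiproliferative gene that is also immediate-early, fell by 2.17 ± 0.36 and Sesn2, a stress sensor that restrains mTOR, by 2.08 ± 0.35. Plk2, a kinase, fell by 2.52 ± 0.57, though its 10 h replicate 2 at 9.43 lay above 4 h replicate 1 at 8.93. Ccng1 (-0.04), Pmaip1 (-0.34) and Aen (0.14), which p53 also drives, did not pass. The list's mean level ranged from 6.76 to 7.48 over the 4 h arrays and from 6.21 to 6.53 over the 10 h arrays, and it was highest on replicate 6, as were the immediate-early and endothelial lists.

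Among 20 regulators of the first gap phase, 2 were higher and 4 lower, close to the shares of all genes (18.8% and 15.2%), so the genes below are single results. The kinase Cdk6, which drives quiescent stem cells into cycle, rose 2.41-fold, from 8.65 to 9.10 on the 4 h arrays to 10.23, 10.03, 10.25 and 10.00. Rbl1, of the retinoblastoma family and itself induced in S phase, rose by 1.01 ± 0.19. Cyclin D1 (Ccnd1) fell by 1.50 ± 0.30, where 10 h replicate 2 at 8.71 lay among the 4 h arrays and the other 3, at 7.35 or lower, lay below them. Ccng2, a cyclin of arrested cells, fell by 1.18 ± 0.21. Cyclin D2 (Ccnd2) differed by -0.30 ± 0.28 and did not pass.

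Most DNA replication genes rose. Of 32 measured members, 20 passed as higher, against 18.8% of all genes, none was lower, and 31 had a positive difference, with a median of 0.49. The mean level of the list was 7.90 to 8.56 at 4 h, lowest on replicate 6, and 8.78, 8.80, 8.89 and 8.88 at 10 h, so the times did not overlap. Replicate 1 at 4 h lay below all 10 h arrays in 21 of the 32 genes, against 31.25% of all genes. The count was 13 without 10 h replicate 3 and 9 without the third 4 h code group, where 7.71% of all genes were higher.

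Promoters of 4 members are shown because E2F factors, which drive entry into S phase, bind sites of this form. The words searched were TTTCCCGC, TTTCGCGC, TTTGCCGC and TTTGGCGC on both strands of the same window, and they were found in 8 of 27 replication genes (29.6%) against 2.7% of all genes. Capitals mark the matches, some of which overlap on opposite strands.
Pola1, chrX:93632214-93632313, minus strand: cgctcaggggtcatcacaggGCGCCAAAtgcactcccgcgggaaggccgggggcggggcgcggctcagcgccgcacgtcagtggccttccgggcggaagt
Mcm5, chr8:75109336-75109435, plus strand: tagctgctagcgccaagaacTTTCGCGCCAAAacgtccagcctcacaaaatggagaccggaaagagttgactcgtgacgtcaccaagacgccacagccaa
Cdc6, chr11:98907993-98908092, plus strand: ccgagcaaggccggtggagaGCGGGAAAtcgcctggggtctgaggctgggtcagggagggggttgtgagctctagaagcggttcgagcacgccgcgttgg
Mcm6, chr1:128359725-128359835, minus strand: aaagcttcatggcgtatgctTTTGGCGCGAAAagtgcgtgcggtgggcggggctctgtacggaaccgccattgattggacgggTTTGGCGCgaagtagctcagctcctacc
In Mcm6 the first block in capitals holds a match on each strand.

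Pola1, the catalytic subunit that starts new strands, was at 7.53, 8.02 and 8.28 (lowest, median, highest) at 4 h, and between 8.76 and 9.06 at 10 h without overlap (0.94 ± 0.15). Mcm5, a subunit of the replicative helicase, rose by 0.91 ± 0.14, from 7.70 to 8.32 on the 4 h arrays to 8.93 to 9.25 at 10 h. Cdc6, which loads that helicase, rose by 0.77 ± 0.19, with 10 h replicate 2 at 8.28 below the highest 4 h array at 8.49. Mcm6 rose by 0.56 ± 0.18 and lost its call without any one of the 4 arrays at 10 h (0.52 to 0.59). Fen1, the flap endonuclease of lagging strands, rose by 1.04 ± 0.14 (1.09 at its other probe) and Gins1, of the helicase complex, by 0.84 ± 0.15. The licensing factor Cdt1 differed by -0.01.

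Of 31 mitotic genes, 10 were higher, against 18.8% of all genes, and none lower, with a median of 0.16, and the count fell to 5 without 10 h replicate 1 or 3 and to 6 without 4 h replicate 3 or 5. Ttk, a spindle checkpoint kinase, rose by 0.89 ± 0.16, the kinetochore genes Cenpf and Bub1 by 0.53 and 0.50, and the proliferation marker Mki67 by 0.40 ± 0.09. Cdc20, Plk1 and Cdk1, which peak at division, had negative differences (-0.34, -0.21, -0.19) that did not pass. Of 33 genes of Myc and ribosome making, 17 were higher and 2 lower (median 0.31), against 18.8% and 15.2% of all genes. Nhp2 and Rrp9, of the small nucleolar machinery, rose by 0.99 ± 0.13 and 1.00 ± 0.16, Pes1 by 0.78 ± 0.12 and Srm, spermidine synthase, by 0.90 ± 0.16. Myc itself was at 10.00 to 10.48 at 4 h and at 9.74, 9.94, 10.00 and 9.80 at 10 h (-0.32 ± 0.11, limma adjusted p = 0.041). That call was lost without 4 h replicate 5, 6 or 7 or without 10 h replicate 1, 2 or 4 (-0.34 to -0.27). Small nucleolar RNA genes were higher in 22 of 78 (28.2%) and lower in 6 (7.69%), against the same shares, with a median of 0.40.

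**Figure D3:**
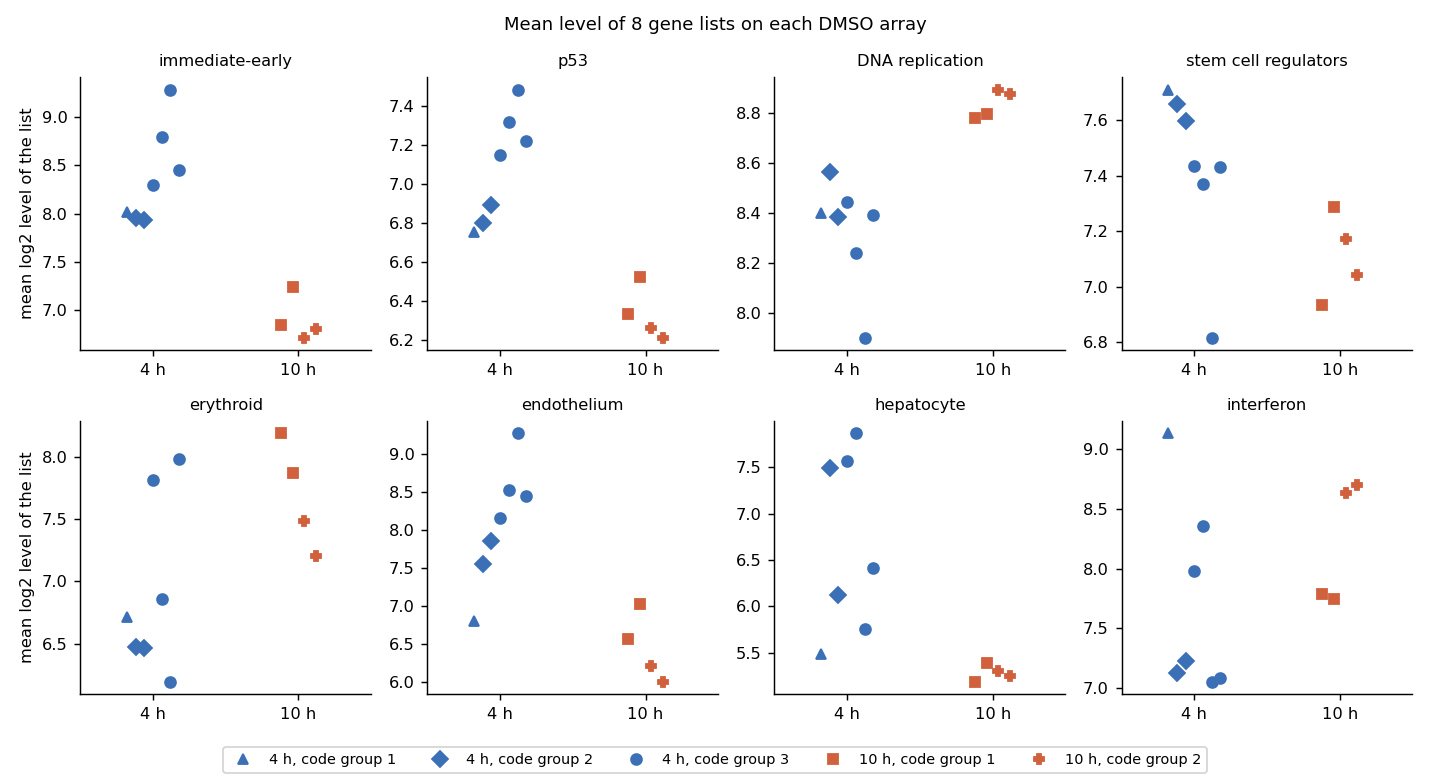
Mean log2 level of 8 gene lists on each DMSO array, with a symbol for each code group. Immediate-early, p53 and hepatocyte genes are lower and DNA replication genes higher on all 10 h arrays than on all 4 h arrays, while endothelial, stem cell, erythroid and interferon genes overlap between times.

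The surface proteins of the gate were examined next. Slamf1 (CD150) was at 3.59, 3.81 and 4.08 (lowest, median, highest) at 4 h and at 5.62, 4.87, 5.24 and 4.90 at 10 h, a 2.49-fold rise (1.31 ± 0.14, limma adjusted p = 0.000118). Cd48 rose 3.77-fold (1.91 ± 0.38), with 6 of the 4 h arrays between 4.50 and 5.27, replicate 3 at 6.51, and the 10 h arrays at 6.28, 6.51, 7.11 and 7.84. Cd244a, another SLAM family receptor, rose by 0.48 ± 0.09. Kit did not pass (-0.42 ± 0.16, limma adjusted p = 0.0604), with 9.61 to 10.09 at 4 h and 9.17, 9.94, 9.48 and 9.06 at 10 h. Ly6a, which encodes Sca-1, had no probe of its own and was not analysed here. Cd34 and Flt3 did not pass (-0.52 ± 0.32 and -0.10 ± 0.42).

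Procr, the endothelial protein C receptor and a marker of stem cells, fell 3.24-fold, from 8.38, 8.95 and 9.49 (lowest, median, highest) to 7.44, 7.63, 6.93 and 7.23 (-1.70 ± 0.20, limma adjusted p = 0.000176). Esam and Tek, on stem cells and on endothelium, fell by 2.05 ± 0.36 and 1.71 ± 0.31. These 3 are shared with vessel cells, whose markers fell too, and the part of such cells was not tested. Of 17 measured surface genes 4 were higher and 6 lower, against 18.8% and 15.2% of all genes.

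Of 34 stem cell regulators, 10 were lower and 2 higher (median -0.32), against 15.2% and 18.8% of all genes. Prdm16, needed for stem cell maintenance, fell by 0.90 ± 0.15, Bmi1, of the polycomb complex, by 0.71 ± 0.16, and Hoxa5 by 1.43 ± 0.22, each with all 10 h arrays below all 4 h arrays. Fli1 and Erg, ETS factors of blood and vessels, fell by 1.05 ± 0.19 and 0.97 ± 0.19, and Sox17, of fetal stem cells and arteries, by 1.53 ± 0.40. Gfi1b, a transcriptional repressor that acts within the erythroid and platelet lineages, rose by 0.97 ± 0.26.

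Several central regulators did not pass. Runx1 differed by -0.06 ± 0.35, Meis1 by -0.32 ± 0.39, Hoxa9 by -0.25 ± 0.46 and Mllt3 by -0.44 ± 0.20. Replicate 6 at 4 h was the lowest 4 h array for each of these 4. Hlf, a factor of the most primitive cells, was at 5.14 on that array and at 7.76 to 8.47 on the other 4 h arrays, against 6.99, 7.13, 6.78 and 6.74 at 10 h. Its difference was -0.72 ± 0.50 with all arrays and -1.13 without replicate 6, when it was among 12 members that passed as lower. Mecom fell by 1.09 ± 0.22 at the brighter probe, from 7.49 to 8.79 on the 4 h arrays to 7.03, 7.64, 7.18 and 7.16, but its other probe differed by 1.13, and the mean of both by 0.02, so no direction can be given. Gata2 was 0.45 higher (limma adjusted p = 0.0482). It lost that call with any array left out except 4 h replicate 1 and 10 h replicate 1 (0.38 to 0.48). Without further normalization Gata2 differed by -0.11, which still lay above the median of all genes there (-0.41).

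Fetal programme and imprinted growth genes were lower in 10 of 17 with 1 higher (median -0.92), against 15.2% and 18.8% of all genes. Without the third 4 h code group 4 were lower, where 6.98% of all genes were. Without the second 10 h code group 2 were lower, where 1606 of 22180 genes were. Igf2, the fetal growth factor, fell 5.74-fold with little spread, from 7.64, 8.29 and 8.42 (lowest, median, highest) to 5.62, 6.11, 5.50 and 5.47 (-2.52 ± 0.18, limma adjusted p = 6.6e-06). Mest and Peg10, imprinted in the same way, fell by 2.47 ± 0.57 and 1.75 ± 0.42 with overlap between times. Hmga2, a chromatin protein of fetal stem cells, fell by 0.93 ± 0.22. Lin28b, which holds back let-7 microRNAs and raises Hmga2 in such cells, went the other way. Its 4 h arrays were at 4.65, 5.61 and 6.44 (lowest, median, highest) and the 10 h arrays at 6.62, 6.98, 6.90 and 6.87 (1.28 ± 0.27, limma adjusted p = 0.00372).

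Some Notch genes fell over time in DMSO, fewer rose and others did not pass. Hes1, the repressor that Notch induces in most tissues, was at 7.26, 8.13 and 9.57 (lowest, median, highest) at 4 h and at 7.05, 6.87, 7.10 and 7.08 at 10 h, a 2.29-fold fall (-1.20 ± 0.33, limma adjusted p = 0.0143). The 10 h arrays were close together and the 4 h arrays spread widely, with replicate 1 nearest to 10 h and replicate 6 farthest. Hey1, a related repressor, fell by 1.15 ± 0.25, from 5.86 to 7.41 on the 4 h arrays to 5.16 to 5.51. Nrarp, a feedback inhibitor that Notch induces, did not pass (-0.05 ± 0.25), with 5.28 to 7.06 at 4 h and 6.26, 6.25, 5.97 and 6.09 at 10 h. Dtx1 did not pass either (0.07 ± 0.11). Relative to all genes Dtx1 differed by 0.03, and by -0.15 without further normalization. Of 18 measured targets 8 were lower, 3 higher and 7 did not pass (median -0.24), against 15.2% lower and 18.8% higher of all genes. Cdkn1a, Ccnd1 and Myc, which many signals control, are among the lower ones. Hey2, Hes7 and Dtx4 passed as higher. Hey2 kept its call with each array left out (0.38 to 0.48). Hes7 lost its call without 10 h replicate 1 or 4, and Dtx4 without any of 8 arrays.

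Genes of the Notch pathway, among them receptors, ligands, gamma-secretase subunits and nuclear partners, were lower in 10 of 27 and higher in none. The other 17 did not pass (median -0.56), and 15.2% of all genes were lower and 18.8% higher. Notch1 fell 2.40-fold, from 7.64, 8.16 and 8.93 (lowest, median, highest) to 6.71, 7.49, 6.95 and 6.56 (-1.26 ± 0.23, limma adjusted p = 0.00189). Notch2 differed by 0.04 ± 0.25. The coactivators Maml2 and Maml3 fell by 1.43 ± 0.25 and 0.83 ± 0.19, and the DNA-binding partner Rbpj by 0.61 ± 0.14, each without overlap. Dll4, a ligand of vessels, fell by 2.31 ± 0.55 and overlapped through 4 h replicate 1 at 5.59 and 10 h replicate 2 at 5.71. Of the gamma-secretase subunits, Aph1b passed as lower and kept its call with each array left out (-0.75 to -0.48). Ncstn, Psenen, Psen2 and Aph1a did not pass, with differences from -0.38 to 0.07. Endothelial cells express Notch1, Dll4, Hes1 and Hey1 as well, and the part of such cells was not tested.

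**Figure D4:**
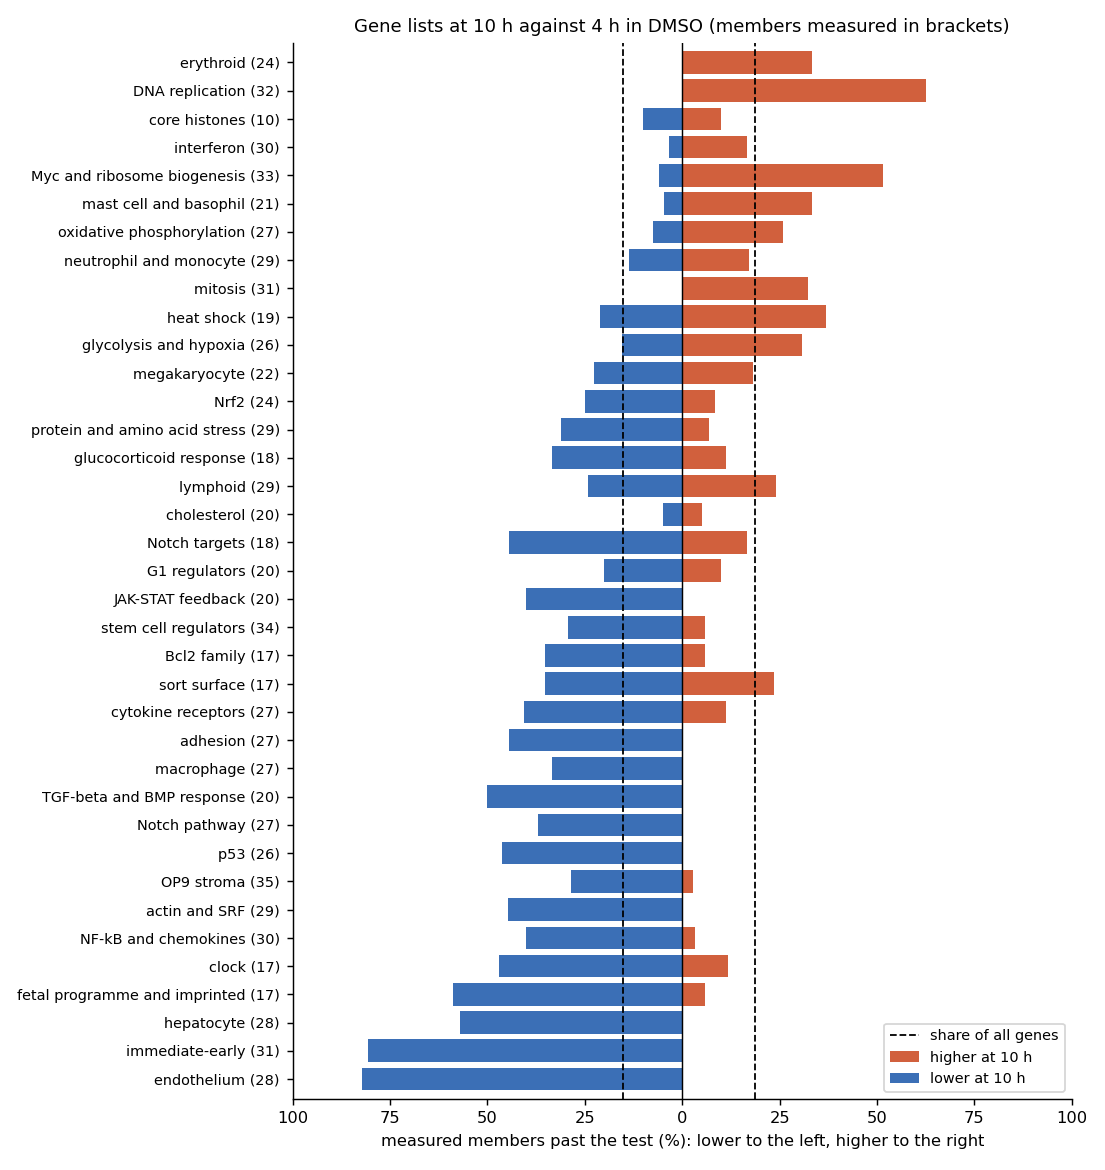
Share of the measured members of each of 37 gene lists that passed as higher (right, orange) or lower (left, blue) at 10 h, in percent, ordered by the median difference. Dashed lines mark the shares over all genes (18.8% and 15.2%), and the endothelial, immediate-early and DNA replication bars reach furthest past them.

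Genes of inflammatory and cytokine signals that passed were mostly lower. NF-kB targets and chemokines passed as lower in 12 of 30 and higher in 1 (median -0.70), against 15.2% and 18.8% of all genes. Icam1, an adhesion molecule of inflamed cells, fell by 2.52 ± 0.33 and Rel, a subunit of NF-kB itself, by 1.92 ± 0.19, from 9.23 to 10.37 on the 4 h arrays to 7.65 to 8.03. The cytokine Il1a fell by 2.47 ± 0.49 and the chemokine Cxcl1 by 1.90 ± 0.46. Ccl22 and Ccr7, which NF-kB also induces, were among the largest rises. JAK-STAT and Ras feedback genes were lower in 8 of 20 and higher in none, with falls of 1.53 ± 0.25 for the kinase Pim3 and 1.46 ± 0.27 for the repressor Bcl6. Spry2, an inhibitor of receptor kinases, fell by 1.71 ± 0.44, while Socs2 (-0.05) and Socs3 (-0.18) did not pass.

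Of 27 receptors for cytokines and growth factors, 11 were lower and 3 higher, against 15.2% and 18.8% of all genes. Tgfbr2 fell 2.66-fold, from 6.72 to 7.16 at 4 h to 5.83, 5.73, 5.42 and 5.04 (-1.41 ± 0.16), and the interferon receptor Ifnar1 fell by 1.27 ± 0.17. Lifr, a receptor of leukaemia inhibitory factor, fell by 2.17 ± 0.56 with overlap. Csf2ra, of the receptor for GM-CSF, rose by 0.78 ± 0.13. Among genes that TGF-beta and BMP induce, 10 of 20 were lower and none higher. Id3, an inhibitor of helix-loop-helix factors, fell by 2.67 ± 0.49, Skil, a Smad repressor, by 2.07 ± 0.24 and Smad6 by 1.32 ± 0.31. Glucocorticoid response genes were lower in 6 of 18 and higher in 2, against 15.2% and 18.8% of all genes, and the classic targets Tsc22d3 (-0.12) and Fkbp5 (0.28) did not pass.

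Interferon genes depended on single arrays. In the full set 5 of 30 were higher and 1 lower (median 0.43), no more than the 18.8% and 15.2% of all genes. The mean level of the list was 9.14 on 4 h replicate 1, 7.98 and 8.36 on replicates 4 and 5 and 7.05 to 7.22 on the rest, against 7.79, 7.74, 8.64 and 8.70 at 10 h. The antiviral gene Isg15 was at 6.80, 7.15 and 9.69 (lowest, median, highest) at 4 h and at 9.20, 8.73, 10.09 and 10.02 at 10 h. Its difference was 1.71 ± 0.55, and the call was lost without 4 h replicate 2, 3 or 7 or 10 h replicate 1, 3 or 4 (1.51 to 1.81). The number of higher members was 13 without 4 h replicate 1, 1 without 4 h replicate 2 or 7, 2 without 4 h replicate 3, 3 without 4 h replicate 4 or 10 h replicate 1, and 0 without 10 h replicate 3 or 4.

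Integrins and adhesion molecules were lower in 12 of 27, against 15.2% of all genes, and higher in none, and 15 did not pass. Itgb5 fell by 1.72 ± 0.21 and Itga5, the fibronectin receptor, by 1.64 ± 0.25, both without overlap, and Vcam1, which holds progenitors to stroma, fell by 1.70 ± 0.31. Of 29 actin and SRF target genes 13 were lower, none was higher and 16 did not pass. The tubulin Tubb6 fell by 1.89 ± 0.22 and the focal adhesion proteins Zyx and Vcl by 1.21 ± 0.15 and 1.22 ± 0.31. Without the third 4 h code group 2 of these 29 were lower, which is the share of all genes in that setting (6.98%). Vim, an intermediate filament of mesenchymal and vessel cells, fell by 1.22 ± 0.29 (-1.32 at its other probe).

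Stress and metabolic lists held calls in both directions, to be read against 18.8% higher and 15.2% lower of all genes. Heat shock genes were higher in 7 of 19 and lower in 4. The large chaperones Hsph1 and Hspa4l rose by 1.10 ± 0.21 and 0.90 ± 0.18. The small one Cryab fell by 2.26 ± 0.49 (-0.88 at its other probe), and Hspb1 by 1.71 ± 0.27, though its other probe differed by 0.12. In the protein and amino acid stress list 9 of 29 were lower and 2 higher. Ppp1r15a, which restarts translation, fell by 1.94 ± 0.30, Herpud1 by 1.50 ± 0.24 and Ddit4, an mTOR inhibitor, by 1.49 ± 0.26. Hmox1, haem oxygenase, fell by 2.61 ± 0.47 and glutathione reductase (Gsr) rose by 0.97 ± 0.16 in the Nrf2 list, where 6 of 24 were lower (3 without 10 h replicate 1 or 4) and 2 higher.

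Hexokinase 1 (Hk1), the first enzyme of glycolysis, rose 2.60-fold with narrow groups, from 6.42 to 6.61 at 4 h to 7.99, 7.90, 7.67 and 8.14 (1.38 ± 0.12, limma adjusted p = 2.3e-05). Tpi1, a later enzyme, rose by 0.74 ± 0.17, and 8 of 26 glycolysis and hypoxia genes were higher with 4 lower, against 18.8% and 15.2% of all genes. Ndrg1, a hypoxia-induced gene, fell by 2.52 ± 0.45 (-1.38 at its other probe). Of 27 respiratory chain genes 7 were higher and 2 lower, with 24 positive differences, and 11 were higher without 10 h replicate 2. The succinate dehydrogenase subunits Sdhd and Sdhb rose by 0.96 ± 0.14 and 0.64 ± 0.15. Cholesterol genes passed once in each direction among 20 (4 lower without 4 h replicate 6, 2 without 10 h replicate 3), and Abca1, which exports cholesterol, fell by 2.11 ± 0.26.

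Clock genes were lower in 8 of 17 and higher in 2 (median -0.72), against 15.2% and 18.8% of all genes. Npas2 and Arntl, the activators of the clock, fell by 0.94 ± 0.11 and 0.94 ± 0.21, and the repressor Nr1d2 by 1.01 ± 0.26. The hours of the day at which samples were taken are not given in the sources used here. Among survival genes of the Bcl2 family 6 of 17 were lower and 1 higher. The death-promoting Bmf and Bik fell by 1.22 ± 0.14 and 1.23 ± 0.22, and the survival gene Mcl1 by 0.79.

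Lineage genes were next. Of 24 red cell genes, 8 were higher, against 18.8% of all genes, and none lower (median 0.64). Gata1, the master factor of red cells and megakaryocytes, had 4 h levels of 6.08, 6.66 and 7.62 (lowest, median, highest) and stood at 8.12, 8.25, 8.22 and 8.24 at 10 h (1.43 ± 0.23, limma adjusted p = 0.00102). Tspo2, of late red cell precursors, rose by 1.61 ± 0.44, with 4 h replicates 4 and 7 at 7.39 and 7.03 among the 10 h values. Slc4a1, the anion exchanger of mature red cells, did not pass (-0.27 ± 0.58). The list's mean level spanned 6.20 to 7.98 at 4 h, highest on those replicates, and 7.20 to 8.19 on the 10 h arrays. The count of 8 was 4 without 10 h replicate 1 and 5 without 10 h replicate 2 or 3, and it was 15 without the third 4 h code group, which holds 4 h replicates 4 and 7, where 7.71% of all genes were higher.

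Genes of mast cells, basophils and eosinophils were higher in 7 of 21 and lower in 1, against 18.8% and 15.2% of all genes. The count of 7 was 4 without 4 h replicate 2 or 10 h replicate 4. Prg3, an eosinophil granule protein, rose by 1.65 ± 0.38, the eosinophil peroxidase Epx by 1.31 ± 0.32 and the mast cell protease Cpa3 by 1.20 ± 0.29, all 3 with overlap. Neutrophil and monocyte genes were higher in 5 of 29 and lower in 4, close to the 18.8% and 15.2% of all genes, with 3 higher without 10 h replicate 1, 2 or 4. Ms4a3, of granulocyte-monocyte progenitors, rose by 1.28 ± 0.33. Irf8, of monocytes and dendritic cells, fell by 2.40 ± 0.59 (-2.04 at its other probe) and Cebpb by 0.91 ± 0.20. The granule genes Mpo and Elane differed by -0.03 and 0.16 and did not pass.

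Megakaryocyte genes were higher in 4 of 22 and lower in 5, again near the shares of all genes (18.8% and 15.2%). Clec1b, a receptor of platelets and liver endothelium, fell by 2.54 ± 0.58, while Pf4 (0.25) and Itga2b (0.42) did not pass. Gp5 passed as higher (1.30 to 1.95 with 1 array left out) and lost its call without 10 h replicate 1. Gp9 passed as lower (-0.92 to -0.62) and lost its call without 10 h replicate 4. Lymphoid genes were higher in 7 of 29 and lower in 7, not far above these shares. Ebf1, a B-lineage factor that stroma also expresses, fell by 2.44 ± 0.38, the B cell receptor gene Cd79a by 0.92 ± 0.15 and Ptcra, a Notch target of early T cells, by 0.58 ± 0.11. Vpreb1 rose by 0.93 ± 0.14, Nkg7 by 0.98 ± 0.17 and Il7r by 0.58 ± 0.12, from low levels (3.16 to 3.63 for Il7r at 4 h). Of the 10 histone genes measured, 1 was higher, the variant H2az1 (1.11 ± 0.12), and 1 lower, H1f2 (-0.70 ± 0.22). H1f2 lost its call without 4 h replicate 4 or 5 or 10 h replicate 1, 3 or 4 (-0.71 to -0.58).

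The GSI cultures passed through the same times in the same code groups, so their values are set beside those of DMSO and are no independent check. All 15 of the largest rises also had a positive difference with GSI, from 1.14 to 3.80, and all 15 of the largest falls a negative one, from -3.92 to -2.08. Car1 rose by 3.29 and Saa3 by 3.80 with GSI, and Hes1 fell by 1.52 against 1.20 in DMSO. Flt3 had the difference 0.75 with GSI and -0.10 in DMSO, and it passed in neither. The difference between the time effects was tested for every gene within DMSO and GSI pairs. No gene passed (0 of 22180, 0%, by limma, with a lowest adjusted p of 0.0618), and 1885 had an unadjusted p under 0.05. That does not show that time acted alike in both. For Flt3 the difference of time effects was 0.85 ± 0.22 (limma adjusted p = 0.436), for Cdkn1a -0.53 ± 0.17 (0.447) and for Hes1 -0.33 ± 0.15 (0.581).

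**Figure D5:**
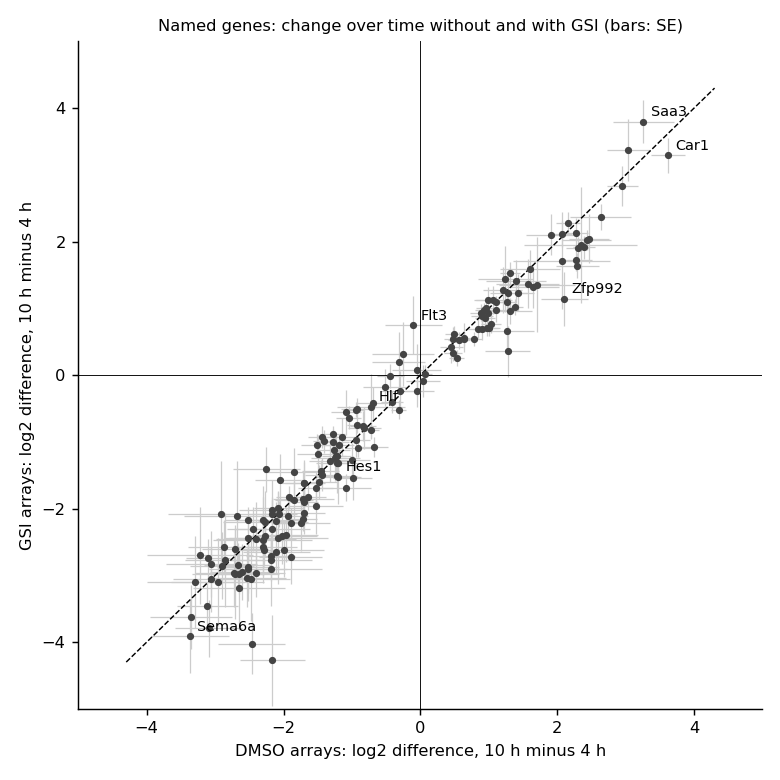
Difference at 10 h minus 4 h (log2) of the named genes in DMSO (horizontal) and with GSI (vertical), with SE bars; the dashed line marks equal values. Most points lie near the line, and some genes near 0, Flt3 among them, have opposite signs in DMSO and GSI.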

How the data were processed

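RNA of 22 mouse samples was measured on 1-colour arrays. The authors deposited log2 expression values, for which the submitters' processing notes name RMA and Partek 6.6. Array medians differ between times as they do when sets are normalized apart, which no label states, so the 11 DMSO arrays were quantile normalized together. Of 41345 probes, 23521 had 1 gene symbol in the platform annotation, 1814 had several and 16010 none; the 1-symbol probe with the highest mean stood for each of 22180 genes, with no filter on low values. Time was tested with limma 3.58.1 in R 4.3.3 (lmFit, eBayes with intensity trend, 2-sided, Benjamini-Hochberg) on 4 against 7 arrays without a block, after the method was tested on simulated data. Same-numbered arrays of both times did not deviate together (r from -0.233 to 0.044). The difference of time effects was fitted on all 22 arrays after quantile normalization of these, with the pair as a block, since the series' design states that each replicate is a DMSO and a GSI sample. That design calls the replicates biological. Named genes are the 15 largest rises and falls without overlap that passed (gene models, olfactory and small RNA genes left out), up to 4 largest passing members of each list, and fixed stem cell, Notch and growth genes; further list members that describe a list were chosen after their values were seen. The comparison, genes and 37 lists were chosen with earlier results of these data known. The alternatives were 3 other scalings of these arrays and 1 of all 22, a dim-gene filter, probe means, no trend, array weights, blocks, a fold threshold, 4 h replicates 4 and 5 as 1, and leaving out arrays or code groups.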

Additional observations from a re-analysis of the deposited data

Results flagged for a closer look

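In 12 of 190 groups of arrays 1 array lay far from the others, measured as its gap to the nearest array over the range of the group. Chance flags about 1 in 20 groups. Replicate 6 at 4 h was the low array for 6 of these: Hlf (0.787, at 5.14 against 7.76 for the next), Meis1 (0.704, 7.40 against 9.08), Hoxa9 (0.645, 4.80 against 6.66), Notch2 (0.623, 6.38 against 7.32), Mecom (0.575, 7.49 against 8.24) and the mean level of stem cell regulators (0.618, 6.82 against 7.37). Replicate 3 at 4 h was high for Cd48 (0.619, 6.51 against 5.27) and Gdf3 (0.582, 4.74 against 4.29), and replicate 1 at 4 h for Ccl22 (0.634, 5.60 against 4.44). Replicate 7 at 4 h was low for the mean level of histone genes (0.634, 6.72 against 6.98). At 10 h, replicate 2 was low for Gal (0.834, 4.14 against 4.66) and replicate 3 for the mean level of Notch targets (0.869, 5.76 against 5.91).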

How the results depend on the processing

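The 7537 genes (4164 higher, 3373 lower) became 13351 (465, 12886) without further normalization and 10955 with 8185 higher after median centring. After a filter on dim genes, which tested fewer, they were 4060 (2055, 2005). They were 2729 (1404, 1325) with the replicate number as a block, although the numbers do not pair the times. Without the third 4 h code group 3260 (1711, 1549) passed, and without the second 10 h code group 3946 (2340, 1606), both with fewer arrays. With a fold threshold of 1 on the log2 scale 1239 (350, 889) passed. Leaving out 1 array gave 5971 to 7490 (3259 to 4216 higher, 2652 to 3483 lower). Cyclic loess gave 7149, code group as a random block 6140, array weights 7189, no trend 7402, probe means 7581, all 22 arrays scaled together 7531, and 4 h replicates 4 and 5 as 1 sample 6725. For the difference of time effects the 0 genes became 4 without further normalization, 2 after cyclic loess, 0 without the pair block, and 0 to 1 with a pair left out (1 without 10 h pair 1 or 3). Among the genes of the naming rule, the sign turned between settings of which at least 1 passed for Atp5o (-0.21), Dtx1 (-0.56) and Gata2 (-0.11) without further normalization, which lowers the median of all genes to -0.41, and for Mecom (0.023) with the mean of its probes. Genes with differences near 0 that did not pass, such as Notch2, also change sign between settings. Of 164 named genes that passed, the replicate block ended the call of 54, and the second 10 h code group left out that of 65. The cause was not tested where fewer genes or arrays do not give it.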
